A study of Mus musculus with 4 samples.

Results

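The 10 genes described here encode ligands and receptors of vascular endothelial growth factor (VEGF) and angiopoietin signalling, and they were taken by symbol from the 31053 genes listed in each of 4 single-cell RNA libraries. The ligands were Vegfa, Vegfc, Pgf and Angpt2, and the receptors and co-receptor were Kdr, Flt1, Flt4, Tek, Tie1 and Nrp1. All 10 were found by symbol in every library. The libraries hold cells of the submandibular salivary gland of female C57BL6/J mice. Beads had been used to deplete EpCAM-positive epithelium and Ter119-positive red cells, and dead cells had been removed. Cells named epithelial-like below still numbered 52 and 136 in the deligated and 3351 and 3663 in the homeostatic libraries. In the 2 deligated libraries the mice were 14 weeks old and the gland ducts had been clipped for 14 days and then opened for 5 days. In the 2 homeostatic libraries the mice were 12 weeks old and had no surgery. Age therefore differed along with the surgery. The number of animals behind each library was not stated, so p-values measure only the spread between these libraries, which may be technical. The protocol text also names the sublingual gland, whose share of the cells is unknown.

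VEGF proteins bind receptor tyrosine kinases on endothelial cells. VEGF-A acts mainly through the receptor encoded by Kdr, the Flt1 product binds VEGF-A and placental growth factor (Pgf) with high affinity and limits how much reaches Kdr, and VEGF-C acts through the receptor of lymphatic endothelium encoded by Flt4. Neuropilin 1 (Nrp1) is a co-receptor of VEGF-A. Angiopoietin 1, made by cells around vessels, activates the receptor encoded by Tek and steadies vessels, angiopoietin 2 (Angpt2) can block it, and Tie1 is a related receptor that modulates Tek.

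Sequencing yielded 35662241 and 53898793 UMIs (unique molecular identifiers, counts of captured RNA molecules) over 4725 and 8713 cell barcodes of the deligated group, and 53633980 and 52379402 UMIs over 12854 and 13266 barcodes of the homeostatic group. After filtering, 33695 cells remained, with a median of 6047 and 5206 UMIs in deligated and 2915 and 2730.5 UMIs in homeostatic cells. Cells were clustered without the 10 genes and without 30 further pathway genes, and clusters were named by resemblance to fixed markers. The classes tested were endothelial-like (1906, 3135, 3521 and 3466 cells, in the order deligated replicates 1 and 2, then homeostatic replicates 1 and 2, which is kept below), fibroblast-like, mural-like, NK/innate lymphoid-like, T cell-like, macrophage-like and epithelial-like cells. Levels are CPM, UMIs of a gene per 1000000 UMIs summed over the cells of a class in a library.

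The groups stood apart beyond the 10 genes. Most endothelial-like cells fell into clusters of 1 group, such as a cluster led by Hlx and Rsad2 (1157, 2307, 10 and 5 cells) and a cluster led by Gm20532 and Prkd1 (1, 3, 2948 and 2962 cells). NK-like, fibroblast-like and T cell-like cells split between clusters in the same way, whereas mural-like and macrophage-like clusters were shared. At the doubled clustering resolution the smooth muscle-like cells split by group as well (159, 233, 2 and 1 cells in a cluster led by Tagln and Myh11, and 0, 0, 44 and 50 in one led by Dgkb and Ctnna3). Genes with more than 100 kb of intron were lower in deligated endothelial-like cells: their log2 fold change had a median of -0.92, against 0.23 for genes with at most 2 kb. The file headers name different Cell Ranger versions for the groups, so an effect of the version and one of the group cannot be told apart. Fold changes are therefore given also after removal of the trend with intron length where this changed a call, and the closing section lists the changes of sign. RNA of 6 salivary secretory genes made up 49.7 and 93.9 CPM in deligated and 2237 and 2489 CPM in homeostatic endothelial-like cells.

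On GRCm38 the receptor genes Kdr (chromosome 5, 75932827 to 75978458, minus strand, 36.6 kb of intron) and Flt1 (chromosome 5, 147561604 to 147726011, minus strand, 150.9 kb of intron) lie on the same chromosome. Tek (chromosome 4, 94739289 to 94874976, plus strand, 131.0 kb) and Tie1 (chromosome 4, 118471191 to 118490061, minus strand, 14.0 kb) differ in intron length, as do Nrp1 (chromosome 8, 128358604 to 128503363, plus strand, 135.0 kb) and Flt4 (chromosome 11, 49609263 to 49652739, plus strand, 35.2 kb). Of the ligand genes, Vegfc (chromosome 8, 54077606 to 54187096, plus strand) holds 107.0 kb of intron, Angpt2 (chromosome 8, 18690263 to 18741562, minus strand) 47.6 kb, Vegfa (chromosome 17, 46016993 to 46032369, minus strand) 11.1 kb and Pgf (chromosome 12, 85166635 to 85177790, minus strand) 8.3 kb. Angpt2 lies within the span of Mcph1 on the other strand, and it was not stated whether counting used strand.

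The upstream sequences of 3 genes are shown because Kdr and Flt1 were the pair of receptors with the most alike pattern across cells and Vegfc was the ligand that fell in endothelial-like cells. They were taken from RefSeq for GRCm38.p6, which held 9 of the 10 genes, and are printed 5′ to 3′ on the strand that table gives for the gene. For Kdr and Flt1 the bases that follow were found in a GENCODE transcript of the gene, a check that Vegfc did not pass, as its window ends 74 bases before the GENCODE start. Capitals mark the letters GGAA on either strand (printed GGAA or TTCC), the core that ETS transcription factors recognise. The windows are chr5:75978459-75978705 on the minus strand for Kdr, chr5:147726012-147726261 on the minus strand for Flt1 and chr8:54077282-54077531 on the plus strand for Vegfc.
Kdr: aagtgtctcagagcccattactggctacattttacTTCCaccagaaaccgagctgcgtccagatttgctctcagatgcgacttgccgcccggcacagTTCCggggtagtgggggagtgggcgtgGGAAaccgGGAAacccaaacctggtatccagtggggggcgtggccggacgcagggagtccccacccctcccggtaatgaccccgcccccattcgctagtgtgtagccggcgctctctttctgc
Flt1: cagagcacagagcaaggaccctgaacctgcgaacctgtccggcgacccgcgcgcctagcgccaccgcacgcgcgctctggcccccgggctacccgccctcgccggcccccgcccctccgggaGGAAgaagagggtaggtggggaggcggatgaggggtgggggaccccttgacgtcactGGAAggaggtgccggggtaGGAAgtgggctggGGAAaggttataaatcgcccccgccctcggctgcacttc
Vegfc: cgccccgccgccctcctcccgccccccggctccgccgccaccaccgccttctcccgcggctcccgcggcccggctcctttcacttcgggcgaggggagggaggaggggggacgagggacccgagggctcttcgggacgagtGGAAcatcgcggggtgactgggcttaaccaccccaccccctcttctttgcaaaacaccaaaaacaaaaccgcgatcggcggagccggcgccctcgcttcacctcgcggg
The window held 4 such cores for Kdr, 4 for Flt1 and 1 for Vegfc, and 93.4% of 32851 windows of 250 bases upstream of all genes held at least 1, with a median of 3. The longer form CCGGAA occurred once for Kdr (12.0% of all windows), and AGGAAG occurred at 2 places for Flt1 (29.5% of all windows). The GC box GGGCGG was found in the Vegfc, Kdr and Flt1 windows and in 32.7% of all windows. The hypoxia response core ACGTG was in 0 of the 9 windows and in 16.6% of all. Both strands were searched for every motif, and longer forms overlap the core.

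The 6 receptor genes were endothelial genes in both groups. Kdr, whose product carries most VEGF-A signalling, measured 2355 and 2290 CPM in deligated and 1991 and 1939 CPM in homeostatic endothelial-like cells, and between 2.32 and 91.1 CPM in the 6 other tested classes. Flt1 measured 3859, 3815, 4143 and 3968 CPM in endothelial-like cells and between 4.64 and 150.3 CPM elsewhere. Endothelial-like cells held 93.3% to 97.5% of all Kdr UMIs and 93.4% to 97.8% of all Flt1 UMIs in a library.

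Flt4, the VEGF-C receptor, measured 85.1, 111, 95.5 and 92.7 CPM in endothelial-like cells and at most 9.85 CPM in the other tested classes. Tek measured 322, 355, 415 and 414 CPM, with both homeostatic libraries above both deligated ones, and at most 13.2 CPM elsewhere. Tie1 measured 495, 498, 357 and 350 CPM, with both deligated libraries higher, and at most 35.1 CPM elsewhere. Part of the UMIs outside the endothelial class lay in clusters that were not tested. The erythroid-like cluster held 463, 1343, 698 and 613 Kdr UMIs, at 1325 to 1604 CPM in the 3 libraries with at least 30 of its cells. Its deligated and homeostatic means were 2518 and 2897 CPM for Flt1, 973 and 1204 CPM for Nrp1, and 201 and 262 CPM for Tek. They were 332 and 229 CPM for Tie1 and 69.6 and 55.4 CPM for Flt4. The source of this receptor RNA in a cluster named by haemoglobin genes was not tested. An unnamed cluster led by Rflnb and Rbp7 (513 and 601 homeostatic cells) held 507 and 622 Kdr UMIs, at 1064 and 1082 CPM.

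Nrp1 was the least confined receptor gene, with 83.6% to 88.8% of its UMIs in endothelial-like cells. Its level was 1743, 1400, 1719 and 1679 CPM in endothelial-like cells and 408, 422, 520 and 515 CPM in fibroblast-like cells. Mural-like cells, the pericytes and smooth muscle of vessel walls, measured 259, 267, 343 and 176 CPM. Macrophage-like cells measured 101, 114, 239 and 199 CPM and overlapped mural-like cells in the homeostatic group. Within the mural-like class, the deligated and homeostatic means were 475 and 547 CPM in pericyte-like cells and 144 and 163 CPM in smooth muscle-like cells. Homeostatic replicate 2 had 14 pericyte-like cells. The lowest Nrp1 levels were those of NK-like cells (9.41 and 10.6 CPM, then 36.5 and 30.6 CPM) and epithelial-like cells (26.0, 30.7, 17.3 and 19.4 CPM), which overlapped each other over the libraries.

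**Figure D1:**
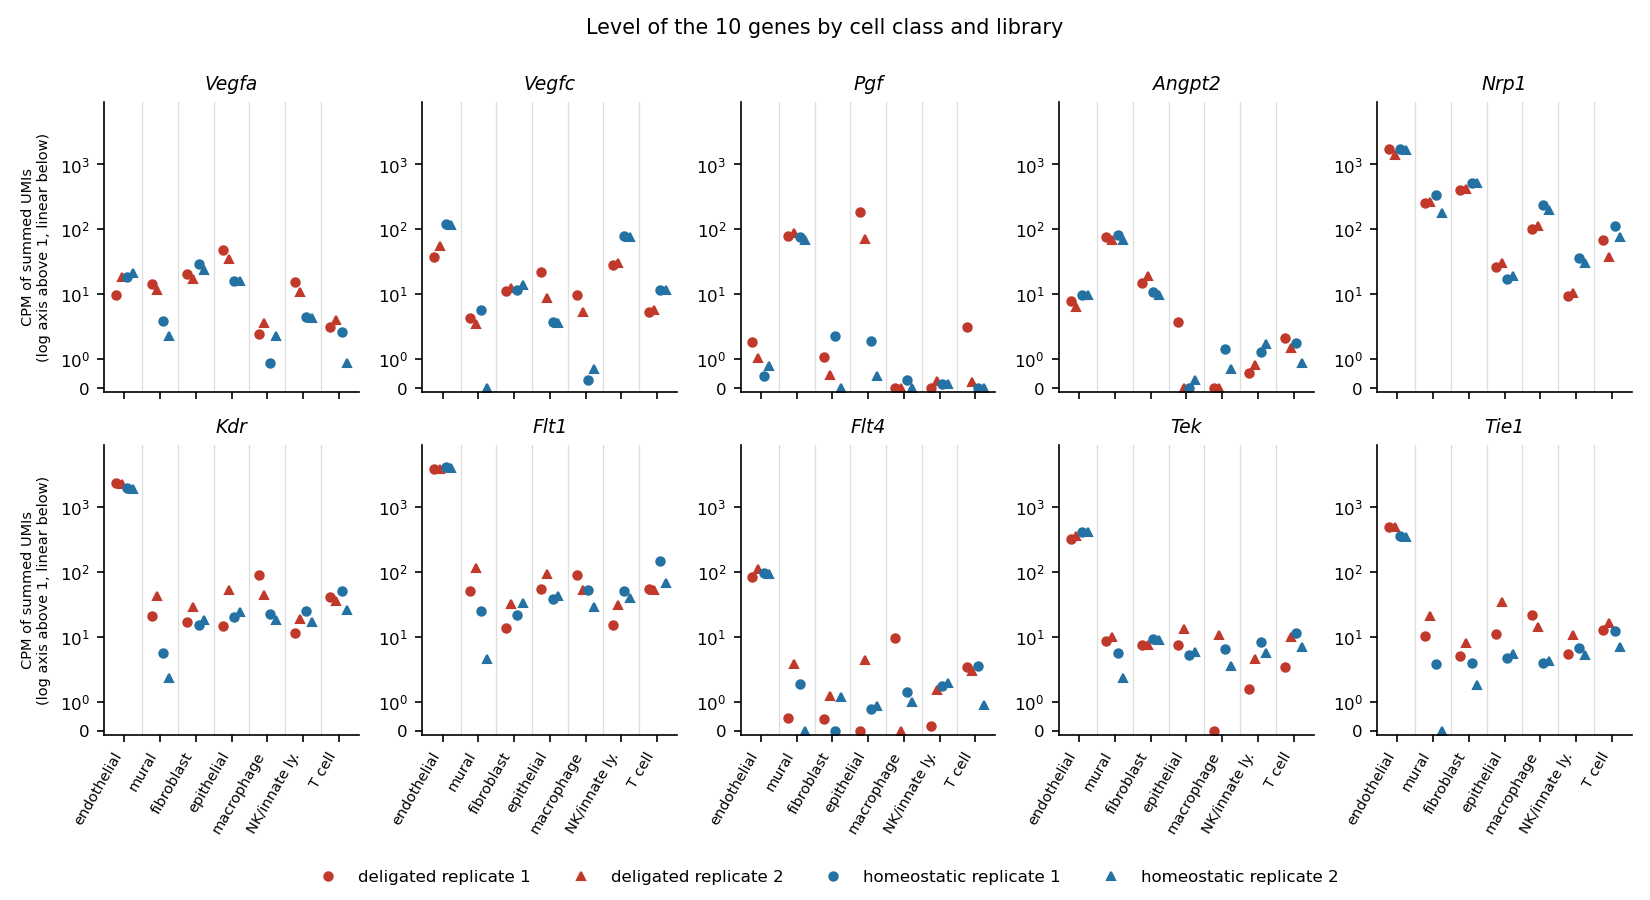
Each panel shows 1 of the 10 genes in CPM of summed UMIs (log axis above 1 CPM, linear below) in 7 cell classes, with 1 symbol for each library. The 6 receptor genes peak in endothelial-like cells in all 4 libraries, whereas Pgf and Angpt2 are high in mural-like cells and Vegfc is high in endothelial-like and NK-like cells.

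Among all endothelial-like cells, 2 of the 10 genes changed between the groups, 20% against 35.7% of the 13450 genes tested with edgeR's quasi-likelihood test. The median log2 fold change (deligated over homeostatic) of the 10 was -0.06, against -0.01 over all genes. Tie1 rose by a log2 fold change of 0.53 ± 0.08 (SE, 2 libraries a group, edgeR adjusted p 0.00578). This call was lost without homeostatic replicate 1 (0.52, edgeR adjusted p 0.117) or replicate 2 (0.53, 0.11), when 1 homeostatic library was left. Vegfc fell by 1.31 on the log2 scale ± 0.16 (edgeR adjusted p 0.00206), and it was past the threshold in all 14 alternatives, at log2 values between -1.57 and -0.84.

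The other receptors did not pass. Kdr had a log2 fold change of 0.28 ± 0.09 (edgeR adjusted p 0.0639). It passed without deligated replicate 1 (0.21, edgeR adjusted p 0.000165) or deligated replicate 2 (0.36, 9.78e-07), and with DESeq2 (0.29, adjusted p 0.0303). Tek had -0.26 ± 0.08 (edgeR adjusted p 0.0521) and passed with doublets kept (0.0499), with the stricter cell filter (0.0497) and without deligated replicate 1 (-0.23, 0.000634) or deligated replicate 2 (-0.27, 0.00024). For Flt1 the value was -0.04 ± 0.09 (edgeR adjusted p 0.736), which passed without deligated replicate 1 (-0.10, 0.0322). For Nrp1 it was -0.07 ± 0.15 (0.726), and it passed with opposite signs without deligated replicate 1 (-0.29, 1.35e-05) and without deligated replicate 2 (0.13, 0.0117). Flt4 had 0.09 (edgeR adjusted p 0.563) and 0.23 without deligated replicate 1 (0.00165).

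The values of Flt1, Nrp1, Kdr and Tek depended on the correction for intron length. After removal of that trend Flt1 was higher in deligated endothelial-like cells at 0.64 (edgeR adjusted p 0.00568), Nrp1 at 0.54 (0.0386), Kdr at 0.34 (0.0387) and Tek at 0.33 (0.0291). The sign of Flt1, Nrp1 and Tek was the opposite of that without the correction. Tie1 stayed past the threshold at 0.44 (edgeR adjusted p 0.0138) and Vegfc at -0.84 (0.0123).

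**Figure D2:**
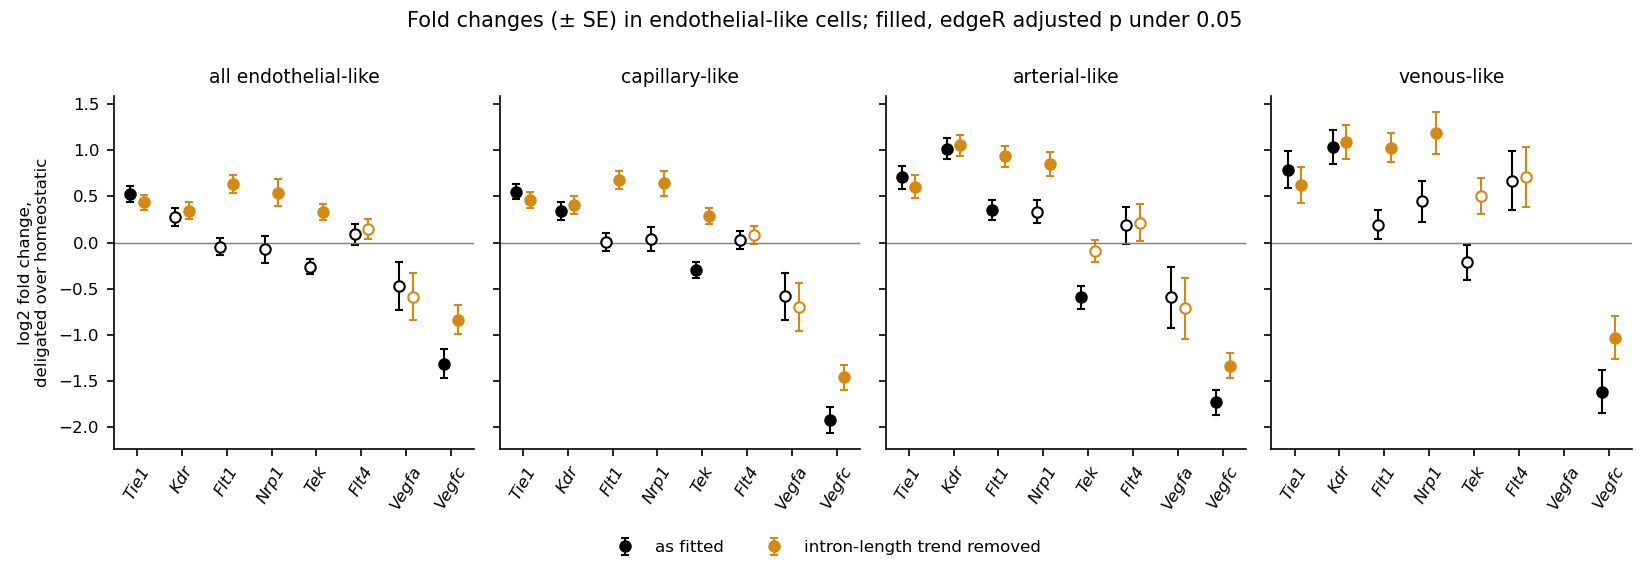
Points are log2 fold changes of deligated over homeostatic libraries with their SE (2 libraries a group) for 8 genes in all endothelial-like cells and in 3 subtypes, as fitted (black) and with the intron-length trend removed (orange). Filled points passed an edgeR adjusted p of 0.05. Vegfc lies below 0 and Tie1 above 0 in every panel under both fits, whereas Flt1, Nrp1 and Tek move upward when the trend is removed.

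Endothelial-like cells were then split within each group into capillary-like (1315, 1591, 2604 and 2570 cells), arterial-like (215, 368, 299 and 280), venous-like (149, 94, 67 and 74), interferon-responding (137, 837, 371 and 390) and lymphatic-like cells (9, 10, 6 and 10). A sprouting-like cluster of 15 and 13 cells was found in the deligated libraries alone. Capillary-like cells carried the highest Kdr, Flt1 and Nrp1 levels of the 3 main vessel subtypes in every library. Kdr measured 2685, 2561, 2157 and 2093 CPM in capillary-like cells, 1292, 1220, 611 and 626 CPM in arterial-like cells, and 1253, 1017, 523 and 575 CPM in venous-like cells. Arterial-like and venous-like cells overlapped in the deligated group and not in the homeostatic group.

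Flt1 measured 4275, 4117, 4363 and 4197 CPM in capillary-like cells against 2748, 2608, 2203 and 1972 CPM in arterial-like and 2714, 2502, 1995 and 2506 CPM in venous-like cells, which overlapped each other. Nrp1 measured 2011, 1654, 1849 and 1825 CPM in capillary-like, 1035, 874, 787 and 726 CPM in arterial-like and 953, 617, 439 and 709 CPM in venous-like cells. Tek differed from these in that venous-like cells exceeded capillary-like cells of the same library, with 430, 484, 465 and 579 CPM in venous-like against 316, 352, 415 and 424 CPM in capillary-like cells.

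**Figure D3:**
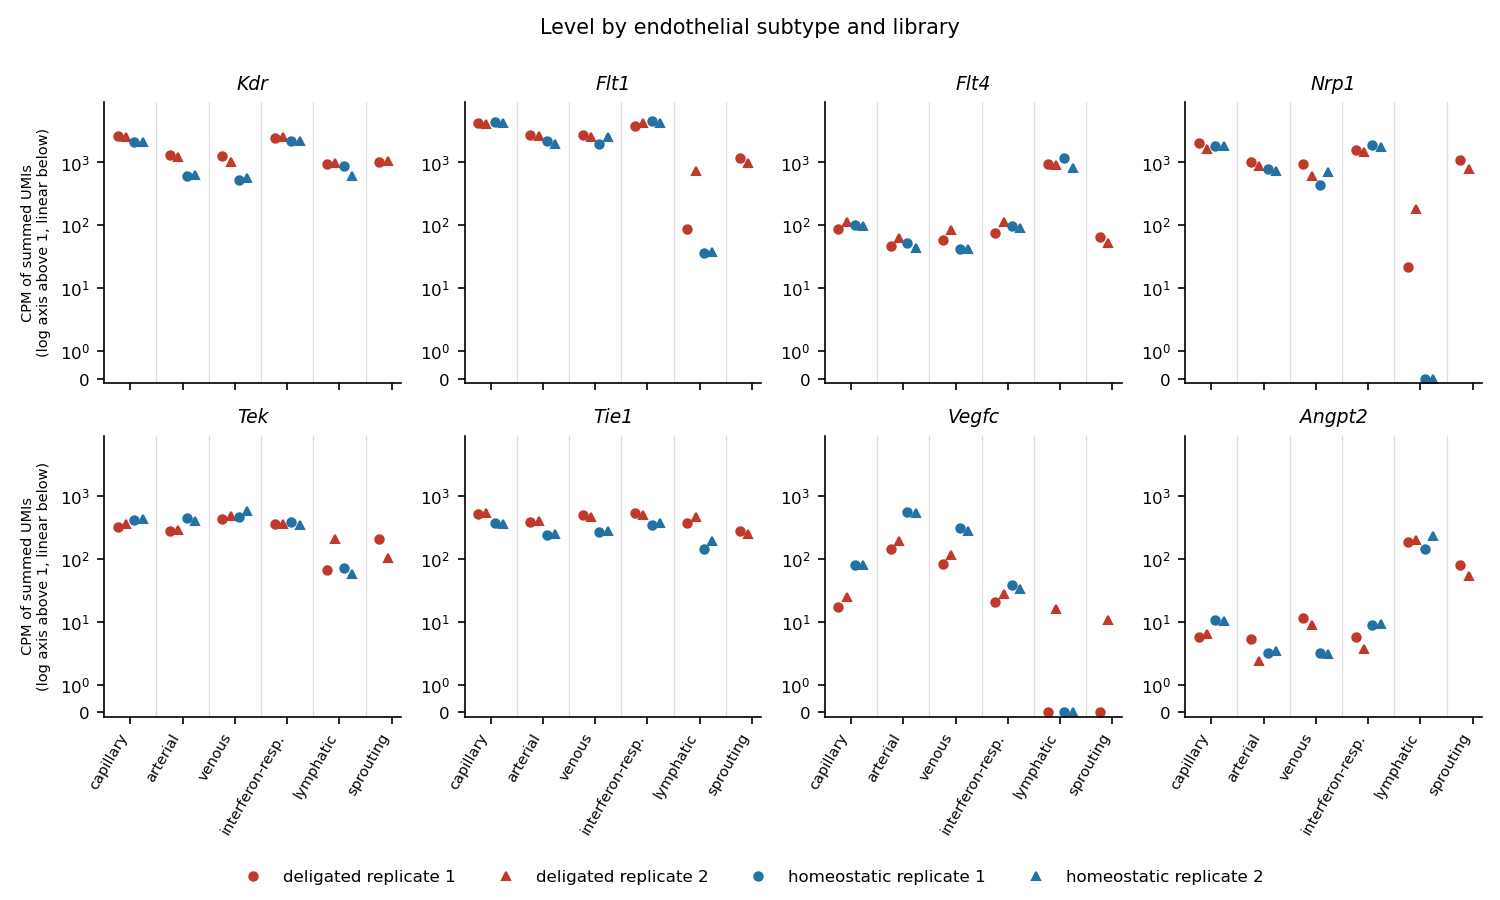
Each panel shows 1 gene in CPM of summed UMIs in the endothelial subtypes, with 1 symbol for each library. Kdr and Flt1 are highest in capillary-like and interferon-responding cells, Flt4 in lymphatic-like cells, and Vegfc in arterial-like and venous-like cells, where both homeostatic libraries lie above both deligated ones.

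In capillary-like cells 5 of the 9 genes tested changed, 2 upward and 3 downward (35.6% of all 12752 genes tested changed). Tie1 rose from 376 and 363 CPM to 515 and 541 CPM (log2 0.55 ± 0.08, edgeR adjusted p 0.00284; without homeostatic replicate 1 or 2 the adjusted p was 0.0568 or 0.0579). Kdr rose by 0.34 ± 0.10 (edgeR adjusted p 0.0319; 0.27 and 0.268 without homeostatic replicate 1 or 2). Tek fell by 0.29 on the log2 scale (edgeR adjusted p 0.0341; 0.248 and 0.361 without homeostatic replicate 1 or 2) and rose by 0.29 with the intron trend removed (0.0418). Both Kdr and Tek lost the call with the replicate number as a block (edgeR adjusted p 0.0891 and 0.074), and Kdr at the doubled clustering resolution (0.26, 0.0779). A homeostatic capillary-like cluster of 716 cells was led by the salivary secretory genes Prol1 and Car6 and had Kdr at 1512 and 1668 CPM. Without that cluster the Kdr value was 0.28 (edgeR adjusted p 0.0566), and the part of the secretory RNA in it was not tested further. Angpt2 fell from 10.7 and 10.1 CPM to 5.68 and 6.31 CPM (log2 -0.76, edgeR adjusted p 0.014), a call that was absent with DESeq2 (adjusted p 0.145) and without homeostatic replicate 1 (edgeR adjusted p 0.112) or 2 (0.0864).

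The other 4 genes tested in capillary-like cells did not pass. Flt1 had a log2 value of 0.011 (edgeR adjusted p 0.943), Nrp1 of 0.040 (0.838), Flt4 of 0.031 (0.828; 88.6, 111, 102 and 98.1 CPM) and Vegfa of -0.58 (0.12). With the intron trend removed Flt1 (0.68, edgeR adjusted p 0.0033) and Nrp1 (0.64, 0.0125) passed. Nrp1 also passed with opposite signs without deligated replicate 1 (-0.16, edgeR adjusted p 0.0257) and without deligated replicate 2 (0.23, 0.00459). Vegfa passed without deligated replicate 2 (-1.06, edgeR adjusted p 0.0005), with the replicate block (-0.61, 0.0143) and with no filter on low counts (-0.58, 0.039).

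Vegfc showed the largest change of the 9 genes tested in capillary-like cells. It measured 16.8 and 24.5 CPM in the deligated and 79.5 and 79.3 CPM in the homeostatic libraries, without overlap. The fall was 1.92 on the log2 scale ± 0.14 (edgeR adjusted p 0.000129) and was past the threshold under all 17 alternatives (log2 -2.24 to -1.08). The smallest of these arose when 2 clusters led by MHC class II genes were counted as venous-like. The first was the homeostatic cluster led by Cysltr1 and H2-Aa (741 cells), named capillary-like, in which Vegfc stood at 266 and 253 CPM. The second was the unnamed deligated cluster led by Ciita and H2-DMa, with 90.1 CPM on 2 UMIs in 3 cells and 173 CPM in 156 cells. A deligated capillary-like cluster led by H2-Aa and Cd74 (15 and 376 cells, Vegfc 14.8 and 40.7 CPM) was not moved, so homeostatic capillary-like cells fell to 2211 and 2222 while the deligated numbers stayed. With both the Cysltr1 and the H2-Aa cluster left out of the capillary-like class, Vegfc stood at -1.38 (edgeR adjusted p 0.000183) and Kdr at 0.27 (0.068).

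Arterial-like cells had the highest Vegfc level of any endothelial subtype in each library, 142 and 191 CPM in the deligated and 562 and 536 CPM in the homeostatic group. It fell there by 1.73 on the log2 scale ± 0.14 (edgeR adjusted p 4.82e-07, all 15 alternatives between -1.90 and -1.08). Of 8 genes tested in arterial-like cells, 5 changed, 3 upward and 2 downward (14.9% of 9252 genes tested changed). Tie1 rose from 238 and 245 CPM to 391 and 401 CPM (log2 0.71 ± 0.12, edgeR adjusted p 0.000944; 0.0897 and 0.0588 without homeostatic replicate 1 or 2). Tek fell from 439 and 403 CPM to 272 and 288 CPM (log2 -0.59 ± 0.12, edgeR adjusted p 0.00329), and this call was lost with the intron trend removed (-0.09, 0.7) and without homeostatic replicate 1 (-0.54, 0.171) or 2 (-0.65, 0.0801), and with cells thinned to 1000 UMIs (-0.15, 0.735).

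Kdr in arterial-like cells was higher in both deligated libraries, with a log2 fold change of 1.02 ± 0.11 (edgeR adjusted p 1.73e-05), and Flt1 was higher by 0.36 (0.0384). Flt1 passed in 8 of 15 alternatives and was lost without homeostatic replicate 1 (edgeR adjusted p 0.194) or 2 (0.402), with the replicate block (0.0523), with cells thinned to 1000 UMIs (0.0691) and with DESeq2 (adjusted p 0.067). These 2 results depended on the border of the subtype. A homeostatic cluster of 316 cells led by Glul and Hey1, with arterial and capillary markers, had stayed unnamed. With it counted as arterial-like the Kdr value was 0.11 (edgeR adjusted p 0.527) and the Flt1 value -0.14 (0.413). At the doubled clustering resolution they were 0.31 (0.155) and -0.04 (0.875). The summed level of 6 capillary markers in arterial-like cells was 2548 and 3145 CPM in the deligated and 2286 and 2108 CPM in the homeostatic libraries, and that of 8 arterial markers was 2777, 3292, 3958 and 4027 CPM. The part of cell composition in the Kdr difference was not tested beyond this. Nrp1 (log2 0.33, edgeR adjusted p 0.0958), Flt4 (0.19, 0.598) and Vegfa (-0.59, 0.274) did not pass in arterial-like cells, and Nrp1 did so with the intron trend removed (0.85, 0.000419), without deligated replicate 2 (0.50, 3.91e-06) and with no filter on low counts (0.35, 0.0329).

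In venous-like cells 3 of 7 genes tested changed, 2 upward and 1 downward (17.7% of 6538 genes tested changed). Vegfc fell from 308 and 277 CPM to 82.8 and 115 CPM (log2 -1.61 ± 0.23, edgeR adjusted p 1.27e-05, all 15 alternatives between -1.89 and -1.03). Tie1 rose from 266 and 280 CPM to 490 and 463 CPM (log2 0.79 ± 0.20, edgeR adjusted p 0.00625; 0.0611 and 0.055 without homeostatic replicate 1 or 2, and 0.207 with cells thinned to 1000 UMIs). Kdr was higher in both deligated libraries (log2 1.04 ± 0.18, edgeR adjusted p 0.000139), but at 0.13 (0.629) with the MHC class II clusters counted as venous-like. The 6 capillary markers summed to 1296 and 769 CPM in deligated and 292 and 417 CPM in homeostatic venous-like cells, and the 6 venous markers to 1566, 2130, 2704 and 2393 CPM. Flt1 (log2 0.20, edgeR adjusted p 0.447), Nrp1 (0.45, 0.193), Tek (-0.22, 0.508) and Flt4 (0.67, 0.169; 58.0, 83.9, 41.7 and 42.6 CPM) did not pass. With the intron trend removed Flt1 (1.03, edgeR adjusted p 5.31e-05) and Nrp1 (1.19, 0.000726) were past the threshold. Nrp1 passed also without deligated replicate 2 (0.77, edgeR adjusted p 0.0026) or homeostatic replicate 2 (0.85, 0.047), and Flt4 without deligated replicate 1 (0.95, 0.0467).

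Interferon-responding cells are capillary cells high in interferon-induced genes, and their makeup differed between the groups. The homeostatic cells of this class came from 1 cluster, led by Oasl1 and Ifit3, whereas 51 and 688 deligated cells came from a cluster led by Cd274 and Igtp and 86 and 149 from one led by Oasl1 and Ifit3b. Of the 6 interferon-induced markers, Ifit1 (323, 221, 446 and 439 CPM), Ifit2, Ifit3 and Isg15 were higher in both homeostatic libraries, Rsad2 (1587, 1425, 1290 and 1229 CPM) was higher in both deligated ones, and Irf7 overlapped (256, 248, 249.8 and 293 CPM). The class had 2 changed genes of 9 tested (19.9% of 9498 genes tested changed). Tie1 rose from 348 and 365 CPM to 531 and 491 CPM (log2 0.51, edgeR adjusted p 0.00463; 0.21 and 0.13 without homeostatic replicate 1 or 2, and 0.0708 with cells thinned to 1000 UMIs). Angpt2 was lower at an edgeR adjusted p of 0.0493, which rested on 5 to 19 UMIs in a library. It entered the test through the homeostatic libraries, where it is high, so its call is given as a description, with no fold. Angpt2 passed in 3 of 13 alternatives. Among those in which it was lost were DESeq2 (adjusted p 0.826), RLE scaling (0.051), the replicate block (0.114), the intron trend removed (0.0969), and the fits without deligated replicate 2 (0.66) or homeostatic replicate 1 (0.4) or 2 (0.459). Kdr (log2 0.19, edgeR adjusted p 0.226), Flt1 (-0.15, 0.334), Nrp1 (-0.26, 0.119), Tek (-0.060, 0.773), Flt4 (0.073, 0.794) and Vegfa (-0.024, 0.968) did not pass. With the intron trend removed Flt1 (0.47, edgeR adjusted p 0.00483; as fitted the sign was negative) and Tek (0.48, 0.00897) did. Kdr passed without deligated replicate 1 (0.17, edgeR adjusted p 0.0426) or 2 (0.22, 0.0259), and Nrp1 without deligated replicate 1 (-0.36, 7.05e-06). Vegfc measured 20.5 and 27.6 CPM against 38.8 and 33.3 CPM, a difference that did not pass (log2 -0.50, edgeR adjusted p 0.101). Tie1 was thus higher in deligated cells in each of the 4 tested subtypes, and Vegfc passed in 3 of them.

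Whether the change between the groups differed between subtypes was tested as an interaction. Against capillary-like cells, 3 of 9 genes differed in arterial-like cells (2.75% of 12022 genes tested did) and 2 of 9 in venous-like cells (2.15% of 12174). The log2 change of Kdr was greater by 0.71 ± 0.08 in arterial-like (edgeR adjusted p 2.13e-06) and by 0.81 ± 0.15 in venous-like cells (4.45e-05), which lost the call without deligated replicate 1 (0.62, 0.148) and with cells thinned to 1000 UMIs (0.77, 0.149). Flt1 differed in arterial-like cells (0.38, edgeR adjusted p 0.00244; 0.226 and 0.477 without homeostatic replicate 1 or 2). Nrp1 differed in both (0.33, 0.0244 and 0.52, 0.0413), and the arterial value was lost without homeostatic replicate 1 (0.389) or 2 (0.635) and the venous one without deligated replicate 1 (0.931) or homeostatic replicate 1 (0.88). The arterial Nrp1 value was also lost with the intron trend removed (0.27, edgeR adjusted p 0.0987), and the venous one without the MHC class II clusters of both groups (0.49, 0.207). Both Nrp1 values were lost with thinning and DESeq2, and the venous one also with RLE scaling (0.45, 0.122), no filter on low counts and the stricter cell filter. At the doubled clustering resolution none of the 5 passed: Kdr stood at 0.045 and 0.37, Flt1 at 0.025 and Nrp1 at -0.028 and 0.37. With the border clusters moved as described above, all 5 turned to values between -0.19 and -0.10 that did not pass. Vegfc and Tie1 passed neither of these tests.

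Lymphatic-like cells were too few for a test. Flt4 stood at 929, 925, 1188 and 824 CPM in them, against 88.6 to 111 CPM in capillary-like cells, and was detected in 90% to 100% of the cells. Kdr measured 962, 980, 864 and 613 CPM, and Tie1 376, 455, 144 and 192 CPM. Angpt2 measured 188, 196, 144 and 230 CPM, above every other endothelial subtype in these libraries. Flt1 measured 88.5, 737, 36.0 and 38.3 CPM, and all 94 UMIs behind the second of these values came from 20% of its 10 cells. Nrp1 was detected in neither homeostatic library.

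The deligated sprouting-like cluster was named for Apln (91.7 and 241 CPM), Adm (13.1 and 335 CPM), Trp53i11 (275 and 430 CPM) and Cxcr4 (26.2 and 73.4 CPM). All of these were lower in deligated replicate 1. Chst1, the remaining marker of that list, measured 13.1 and 0 CPM. The cluster held Angpt2 at 78.6 and 52.4 CPM on 6 and 5 UMIs, against 5.68 and 6.31 CPM in deligated capillary-like cells. Kdr (1009 and 1048 CPM), Flt1 (1179 and 964 CPM), Nrp1 (1101 and 797 CPM) and Tek (210 and 105 CPM) all measured lower in it than in capillary-like cells of the same libraries. With no such cluster in the homeostatic libraries, no comparison between the groups was made.

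The 4 ligand genes were found in different cells. Vegfa, the main growth signal for blood vessels, was spread over several classes. Epithelial-like cells led in the deligated group (48.3 and 35.1 CPM) on 13 and 8 UMIs, of which 13 and 6 came from 24 and 10 cells of the cluster led by Krt14 and Krt5, and fibroblast-like cells led in the homeostatic group (29.3 and 24 CPM). Endothelial-like cells measured 9.68, 18.2, 18.5 and 21.1 CPM, and they held 36.4%, 49.2%, 53.0% and 58.9% of all Vegfa UMIs. Epithelial cells had been depleted by the beads, so these shares describe the sorted suspension and not the gland.

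Vegfa did not pass in endothelial-like (log2 -0.47, edgeR adjusted p 0.2), fibroblast-like or epithelial-like cells (0.45, 0.398). In endothelial-like cells it passed without deligated replicate 2 (-0.93, edgeR adjusted p 6.51e-05) and with the replicate block (-0.52, 0.0193). In NK-like cells it rose from 4.52 and 4.39 CPM to 15.4 and 10.9 CPM (log2 1.62 ± 0.26, edgeR adjusted p 0.00153), past the threshold in all 13 alternatives at 1.37 to 1.94. T cell-like cells of the same libraries measured 3.17, 4.05, 2.65 and 0.881 CPM. NK-like cells held 22.3% and 21.8% of Vegfa UMIs in the deligated and 6.02% and 6.04% in the homeostatic libraries, and they made up 20.3% and 26.6% of deligated and 9.59% and 9.60% of homeostatic cells.

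Vegfc had a second source in NK-like cells, at 28.2, 30.6, 78.9 and 76.7 CPM against 5.28, 5.75, 11.5 and 11.5 CPM in T cell-like cells. Endothelial-like cells held 67.9%, 63.6%, 72.5% and 70.4% of its UMIs and NK-like cells 19.8%, 25.7%, 22.0% and 23.1%. Of 8 genes tested in NK-like cells, 4 changed, 1 upward and 3 downward (44.3% of 11615 genes tested changed). Vegfc fell by 1.30 on the log2 scale ± 0.10 (edgeR adjusted p 2.16e-05), and the fall was 0.41 with the intron trend removed (log2 -0.41, 0.0136). The summed level of 6 endothelial markers in NK-like cells was 106, 174, 191 and 155 CPM, and it was 183, 232, 301 and 160 CPM in T cell-like cells.

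The other NK-like changes were in receptor genes at low levels. Nrp1 fell from 36.5 and 30.6 CPM to 9.41 and 10.6 CPM (log2 -1.63, edgeR adjusted p 6.99e-05, past the threshold in all 14 alternatives). Flt1 measured 15.4, 31.0, 51.5 and 39.4 CPM (log2 -0.80, edgeR adjusted p 0.0309) and was opposite in sign with the intron trend removed (0.37, 0.302). Its call was lost without deligated replicate 1 (-0.47) or homeostatic replicate 1 (-0.65), and the fall was larger without deligated replicate 2. The Flt1 call was lost as well with doublets kept (-0.45, edgeR adjusted p 0.108), with cells thinned to 1000 UMIs (-0.42, 0.417) and with no filter on low counts (-0.74, 0.15). NK-like cells of the groups came from different clusters, led by Cd7 and Klrb1c (882, 2080, 3 and 5 cells) or by Dscam and Dok6 (4, 3, 1015 and 1041 cells). Kdr did not pass in NK-like cells (log2 -0.32, edgeR adjusted p 0.302; 11.5, 19.0, 25.2 and 17.3 CPM).

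In T cell-like cells 0 of 6 genes tested passed with edgeR, where 19.8% of 10303 genes changed. At an unadjusted p under 0.05, 3 of them did (Flt1, Nrp1 and Vegfc, all lower), and with DESeq2 0 passed after adjustment. Flt1 measured 54.7, 53.0, 150.3 and 67.9 CPM (log2 -0.89, edgeR adjusted p 0.0739) and Nrp1 68.9, 37.7, 113 and 76.7 CPM (-0.72, 0.139). The Flt1 value was -0.93 without deligated replicate 1, -0.87 without deligated replicate 2 and -1.35 without homeostatic replicate 2. It shrank without homeostatic replicate 1, the library at 150.3 CPM. The Nrp1 value was -1.22 without deligated replicate 1, and Nrp1 passed with the replicate block (-0.74, edgeR adjusted p 0.0296). Vegfc had a log2 value of -0.93 (edgeR adjusted p 0.12), Kdr of 0.12 (0.803) and Tie1 of 0.72 (0.207), and all 3 passed with doublets kept (-1.53, 0.0133, then 0.92, 0.0397 and 1.00, 0.0343).

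**Figure D4:**
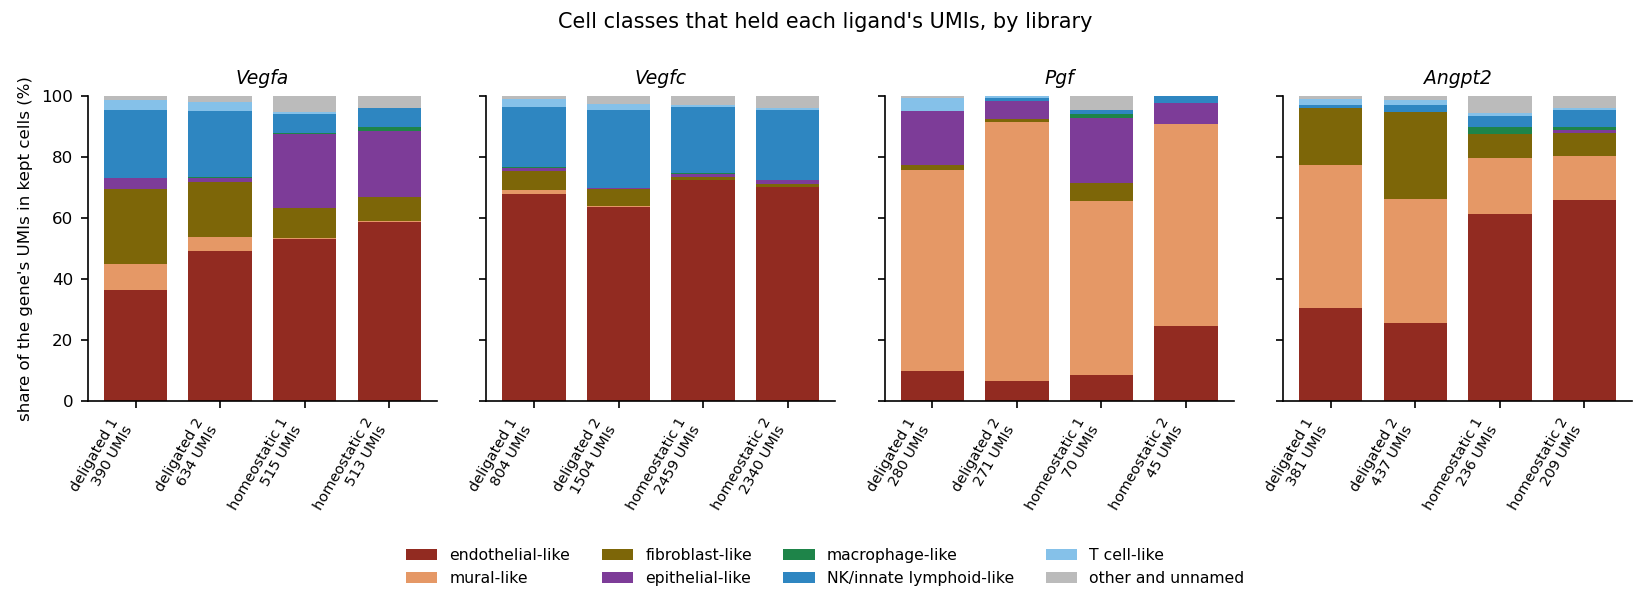
Stacked bars show the share of each ligand gene's UMIs (in %) held by each cell class in each of the 4 libraries, with the number of UMIs under the bar. Mural-like cells held most Pgf UMIs in all libraries, and the largest share of Angpt2 lay in mural-like cells in the deligated and in endothelial-like cells in the homeostatic libraries.

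Pgf, the ligand that binds Flt1 alone among the VEGF receptors, was a gene of mural-like cells, which held 66.1%, 84.9%, 57.1% and 66.7% of its UMIs. It measured 80.3, 88.2, 76.7 and 69.6 CPM there, with a log2 fold change of 0.17 (edgeR adjusted p 0.715). Within the class it belonged to vascular smooth muscle-like cells (123, 131, 121 and 79.6 CPM) and was low in pericyte-like cells (8.12, 7.71 and 5.02 CPM, with 0 UMIs in homeostatic replicate 2, which had 14 such cells). The few lymphatic-like cells of the endothelium held Pgf at 199, 31.4, 36.0 and 95.8 CPM on 18, 4, 1 and 5 UMIs. In smooth muscle-like cells both deligated libraries were above both homeostatic ones, a difference that did not pass (log2 0.33, edgeR adjusted p 0.502).

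Epithelial-like cells had a Pgf level of 186 and 70.1 CPM in the deligated and 1.93 and 0.435 CPM in the homeostatic libraries. It was the 1 gene of 8 tested that passed (edgeR adjusted p 0.00315), where 8.98% of 10853 genes tested changed. Pgf entered the test through the deligated libraries, where it is high, so its call is given as a description, with no fold. The call was lost with no filter on low counts (edgeR adjusted p 0.0662). These UMIs came almost wholly from the cluster led by Krt14 and Krt5, keratins of basal and myoepithelial cells. That cluster held 50 Pgf UMIs in 24 cells and 16 in 10 cells of the deligated libraries, and 14 in 91 cells and 2 in 72 cells of the homeostatic libraries. The epithelial-like class held 52 and 136 deligated against 3351 and 3663 homeostatic cells, so its makeup differed between the groups, and how much of the difference this accounts for was not tested. Of the others tested in this class, Tie1 (log2 1.18, edgeR adjusted p 0.238), Vegfc (1.18, 0.23), Kdr (-0.38, 0.627), Nrp1 (-0.31, 0.599), Flt1 (-0.11, 0.835) and Tek (-0.069, 0.951) did not pass. Tie1 did without deligated replicate 1 (1.91, edgeR adjusted p 0.0335) and Kdr without deligated replicate 2 (-1.65, 0.0214).

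Angpt2 was shared by mural-like cells (77.7, 68.7, 82.4 and 69.6 CPM, log2 -0.09, edgeR adjusted p 0.89), fibroblast-like cells (15.2, 19.2, 10.9 and 9.60 CPM) and endothelial-like cells (7.91, 6.48, 9.81 and 9.64 CPM). Mural-like cells held 47.0% and 41.0% of its UMIs in the deligated and 18.2% and 14.4% in the homeostatic libraries, where they were fewer (318 and 449 against 104 and 65 cells). Pericyte-like cells measured 110, 84.8, 65.3 and 184 CPM and smooth muscle-like cells 58.2, 60.05, 93.0 and 53.1 CPM, and the groups overlapped in both.

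Fibroblast-like cells of the groups came from clusters led by Cilp and Mfap4 (348, 731, 3 and 8 cells) or by Lsamp and Astn2 (0, 0, 246 and 236 cells). In this class Angpt2 was the 1 changed gene of 8 tested (25.1% of 11391 genes tested changed), with a rise of 0.81 ± 0.25 on the log2 scale (edgeR adjusted p 0.0438). It did not pass with DESeq2 (0.84, adjusted p 0.368), with the replicate block (edgeR adjusted p 0.0547), with the stricter cell filter, or without deligated replicate 2 (0.69, 0.0898), homeostatic replicate 1 (0.89, 0.147) or homeostatic replicate 2 (0.73, 0.207). Nrp1 did not pass in these cells (log2 -0.25, edgeR adjusted p 0.141). With the intron trend removed its sign turned and it passed (0.50, 0.0163), and it passed as a lower level without deligated replicate 1 (-0.26, 0.0395). Vegfc measured 11.1, 12.7, 11.5 and 13.8 CPM (log2 -0.015, edgeR adjusted p 0.99). Kdr (0.54, edgeR adjusted p 0.191), Flt1 (-0.18, 0.764) and Vegfa (-0.42, 0.181) did not pass either. Without deligated replicate 1 Kdr (0.82, edgeR adjusted p 0.00498) and Vegfa (-0.58, 0.0445) did, and without deligated replicate 2 Flt1 did (-0.87, 0.00926).

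In mural-like cells 2 of 8 genes passed, both receptor genes at low levels and both higher in the deligated libraries (5.59% of 9665 genes tested changed). Kdr measured 21.3, 43.0, 5.75 and 2.32 CPM on 49, 112, 3 and 1 UMIs, so no fold is given, and it entered the test through the deligated libraries (edgeR adjusted p 0.0323). Flt1 measured 51.2, 116, 24.9 and 4.64 CPM on 118, 302, 13 and 2 UMIs (edgeR adjusted p 0.041). Homeostatic replicate 2 lay under the low-count filter, so Flt1 also entered through the deligated libraries. Its call is given as a description, with no fold. Kdr was lost without deligated replicate 2, homeostatic replicate 1 or homeostatic replicate 2, and Flt1 without homeostatic replicate 2. Both were lost when doublets were kept (edgeR adjusted p 0.153 and 0.464). Kdr was lost with DESeq2, with the stricter cell filter and with the intron trend removed (edgeR adjusted p 0.0597). Tie1 (24, 56, 2 and 0 UMIs, edgeR adjusted p 0.117), Vegfa (33, 30, 2 and 1 UMIs, 0.139) and Nrp1 (log2 -0.0051, 0.997) did not pass. Tie1 did with doublets kept (0.0386) and with no filter on low counts (0.00396). The summed level of 6 endothelial markers in mural-like cells was 398 and 642 CPM in the deligated and 330 and 230 CPM in the homeostatic libraries, with 2 of the 6 at 0 in homeostatic replicate 2. Its part in these values was not tested.

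In smooth muscle-like cells Kdr had 30, 87, 1 and 1 UMIs and Tie1 19, 44, 1 and 0 UMIs. Both entered the test through the deligated libraries, where they are high, so their calls are given as a description, with no fold (edgeR adjusted p 0.00912 and 0.0343; 6.47% of 8256 genes tested changed). The adjusted p was 0.069 and 0.0915 for Kdr and 0.0652 and 0.288 for Tie1 without homeostatic replicate 1 or 2, and 0.0696 for Tie1 with the intron trend removed. Both were lost with DESeq2 and with doublets kept. Flt1 measured 36.1, 130.1, 31.0 and 5.31 CPM on 52, 221, 10 and 2 UMIs and did not pass (2.23, edgeR adjusted p 0.0518). Homeostatic replicate 2 lay under the low-count filter, so Flt1 also entered through the deligated libraries and its values are a description. It passed with the intron trend removed (2.81, edgeR adjusted p 0.0185), with the replicate block (2.16, 1.16e-06) and with no filter on low counts (2.27, 2.84e-08). It did not pass with doublets kept (0.55). The log2 value was 2.87 without deligated replicate 1 and 1.11 without deligated replicate 2. It was 3.91 without homeostatic replicate 1 and 1.43 without homeostatic replicate 2. Nrp1 (-0.19, edgeR adjusted p 0.734) and Angpt2 (-0.31, 0.642) did not pass. Vegfa measured 18.7 and 17.1 CPM in deligated and 6.20 and 2.65 CPM in homeostatic smooth muscle-like cells, on 2 and 1 UMIs in the latter, and did not pass (edgeR adjusted p 0.108).

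In macrophage-like cells 3 of 5 genes tested changed, 2 upward and 1 downward (14.8% of 9563 genes tested changed). Nrp1 fell from 239 and 199 CPM to 101 and 114 CPM (log2 -1.01 ± 0.20, edgeR adjusted p 0.0116), was at -0.11 (0.786) with the intron trend removed, and was lost without homeostatic replicate 1 (-0.93, 0.159) and with cells thinned to 1000 UMIs (-0.82, 0.231). Kdr measured 91.1, 44.5, 22.5 and 18.0 CPM (1.68, 0.0135), turned to -0.20 (0.463) with doublets kept and stood at 0.17 (0.942) with cells thinned to 1000 UMIs. Tie1 measured 22.2, 14.2, 4.03 and 4.26 CPM, on 9 and 8 deligated UMIs. It entered the test through the deligated libraries, where it is high, so its call is given as a description, with no fold (edgeR adjusted p 0.0212). The Tie1 call was lost without deligated replicate 1, homeostatic replicate 1 or homeostatic replicate 2, with doublets kept (edgeR adjusted p 0.752) and with DESeq2 (adjusted p 0.0943). Flt1 measured 91.1, 53.4, 52.4 and 29.5 CPM and did not pass (0.77, edgeR adjusted p 0.19). It did with the intron trend removed (1.75, edgeR adjusted p 0.0286), with the replicate block (0.84, 0.0457) and at the doubled clustering resolution (1.48, 0.00215). It passed with the opposite sign with doublets kept (-0.93, edgeR adjusted p 0.00858). The Flt1 value was 1.15 without deligated replicate 2, 1.23 without homeostatic replicate 1 and smaller without deligated replicate 1. The 6 endothelial markers summed to 219 and 251 CPM in deligated and 107 and 73.2 CPM in homeostatic macrophage-like cells, and their part in the Kdr and Tie1 values was not tested.

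Of 30 other genes of these pathways, 26 could be tested in endothelial-like cells, where 8 were higher and 2 lower (38.5% changed, against 35.7% of all genes, with a median log2 fold change of 0.12 against -0.01). Dusp5, a phosphatase induced by VEGF, measured 11.7, 15.2, 6.22 and 6.64 CPM (log2 1.09, edgeR adjusted p 0.00444). Plxnd1, a receptor for semaphorins that limits vessel growth, rose from 175 and 176 CPM to 319 and 299 CPM (0.85, 0.00173). Sh2d2a, an adaptor of Kdr, passed at a low level, on 17, 41, 9 and 1 UMIs (edgeR adjusted p 0.0483). It entered the test through the deligated libraries, where it is high, so its call is given as a description, with no fold. The Sh2d2a call was lost with DESeq2, with the stricter cell filter, without deligated replicate 2 or homeostatic replicate 2, and with the intron trend removed (edgeR adjusted p 0.0687).

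The 2 that fell in endothelial-like cells were adaptors of receptor signalling. Gab1 fell from 86.8 and 92.5 CPM to 43.6 and 37.7 CPM (log2 -1.11, edgeR adjusted p 0.00141) and Shb from 20.7 and 19.3 CPM to 9.48 and 11.4 CPM (-0.90, 0.00272). The other genes that rose were Efnb2, Hif1a, Klf2, Plcg1 and Plvap. Ptprb, the phosphatase that acts on Tek, measured 1783, 1785, 1982 and 1935 CPM and did not pass (-0.10, edgeR adjusted p 0.416); without deligated replicate 1 it did (-0.14, 0.00668), and with the intron trend removed it turned (0.35, 0.0328). Nrp2, the co-receptor for VEGF-C, measured 240, 216, 210 and 212 CPM and did not pass (0.15), but did so with the intron trend removed (0.61, 0.0102) and without deligated replicate 2 (0.28, 0.000181). Vegfd was low and did not pass (-1.11, 0.0517), but did without deligated replicate 2 (-1.53, 0.00793), with doublets kept and with no filter on low counts. Vegfb, a ligand of Flt1, measured 14.4, 12.9, 16.4 and 13.1 CPM (-0.081, edgeR adjusted p 0.711) and Angpt1 0.682, 0.759, 1.42 and 1.33 CPM (-0.89, 0.0872), and neither passed.

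In mural-like cells 2 of the 16 testable pathway genes were higher and 2 lower (25.0% against 5.59% of all genes, median 0.37 against 0.02). Angpt1, the activating ligand of Tek, fell from 144 and 107 CPM to 63.8 and 64.8 CPM (log2 -0.99 ± 0.20, edgeR adjusted p 0.0191). The call was lost without homeostatic replicate 1 (-0.82, edgeR adjusted p 0.0915), with DESeq2 (-0.97, 0.167), with cells thinned to 1000 UMIs and with the intron trend removed (-0.12, 0.846). Gab1 fell (-1.45, edgeR adjusted p 0.0054), a call lost with the intron trend removed (-0.99, 0.0661). Klf2, a flow-induced transcription factor, rose from 36.4 and 23.2 CPM to 114 and 201 CPM (2.35). Ptprb measured 35.1, 50.2, 9.58 and 2.32 CPM on 81, 131, 5 and 1 UMIs (edgeR adjusted p 0.0104). Homeostatic replicate 2 lay under the low-count filter, so Ptprb entered the test through the deligated libraries. Its call is given as a description, with no fold. Nrp2 (71.2, 71.7, 119 and 48.7 CPM, log2 -0.28, edgeR adjusted p 0.696) and Vegfb (49.5, 48.0, 40.3 and 44.1 CPM, 0.19, 0.755) did not pass. With doublets kept, Ptprb stood at -0.45 (0.479) and Klf2 did not pass (0.76, 0.1), nor did Klf2 with cells thinned to 1000 UMIs. The endothelial markers given above moved with Klf2 and Ptprb, and their part in these values was not tested.

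In fibroblast-like cells 0 of 23 testable pathway genes were higher and 7 lower (30.4% against 25.1% of all genes, median -0.03 against 0.01). Ccbe1 and Adamts3, which work together in the cleavage that activates VEGF-C, both fell. Ccbe1 went from 175 and 152 CPM to 76.2 and 74.9 CPM (log2 -1.05, edgeR adjusted p 0.000519), and with the intron trend removed it stood at 0.08 (0.742). Adamts3 had a log2 value of -2.19 (0.0152), lost without homeostatic replicate 1 (-1.78, 0.163), with DESeq2 (-2.11, 0.052) and with the intron trend removed (-1.19, 0.168). Gab1 (-1.44) and Nrp2 (-0.81) fell as well, and Shb fell by 1.07 on the log2 scale (log2 -1.07). Without homeostatic replicate 1 Nrp2 (-0.79, 0.0693) and Shb (-0.86, 0.161) were lost, as they were with the intron trend removed (-0.22, 0.485 and -0.46, 0.273) and with DESeq2. With cells thinned to 1000 UMIs Nrp2 and Gab1 were lost. Foxo1 and Epas1 were the other 2. The ligand genes Vegfb (44.6, 63.4, 53.9 and 49.2 CPM), Angpt1 (27.3, 33.3, 31.0 and 49.2 CPM) and Vegfd (13.2, 4.76, 7.46 and 6 CPM) did not pass, nor did Ptprb (10.9, 18.9, 13.2 and 15.6 CPM, 0.13, edgeR adjusted p 0.79); Vegfd did so without deligated replicate 2 (1.09, edgeR adjusted p 0.0235), and Angpt1 with the intron trend removed (0.80, 0.0391).

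The genes most like each of the 10 in pattern were ranked by Pearson correlation of log2(CPM + 1) over 28 sums (7 classes in 4 libraries, which share their libraries and depth) among 13234 genes, as a description. Kdr was most like Cd300lg (r = 0.991), Flt1 (0.978) and Btnl9 (0.971), and Flt1 was most like Cyyr1 (0.983). Tie1 was most like Cd300lg (0.978), Podxl (0.977) and Egfl7 (0.976), Tek like Col13a1 (0.963), Flt4 like Arhgef15 (0.956) and Nrp1 like Calcrl (0.945). Pgf was most like the smooth muscle genes Cnn1 (0.965) and Lmod1 (0.959), and Angpt2 like Fhl1 (0.951). Vegfc (Plscr1, 0.859) and Vegfa (Smim19, 0.860) had the lowest best match of the 10.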

How the data were processed

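The authors deposited, for each of the 4 libraries, raw UMI counts per gene and cell barcode. Per the submitters' processing notes all were made with Cell Ranger 6.0.1 on mm10, and Seurat is named; per the file headers the deligated libraries came from Cell Ranger 6.0.1 and the homeostatic ones from 7.0.0. Whether introns or strand were used in counting is not given in the sources used here. The 10 genes and all gene lists were chosen with earlier results of these data known.

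Cells were kept with at least 300 genes and at most 10% mitochondrial UMIs, and the highest-scoring simulated-doublet neighbours were removed at 0.8% per 1000 cells (3.63% to 9.66% of a library). Libraries shared 14 to 54 barcodes a pair. Cells were clustered together with scanpy 1.11.5 (3000 variable genes, 30 components, 20 neighbours, Leiden resolution 1.0), without batch correction. Of 31 clusters, 26 were named by at least 3 fixed markers; unnamed cells made up 1.24%, 2.20%, 10.8% and 11.2% of the libraries. The naming details were set with clusters in view. Endothelial-like cells were clustered again within each group.

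UMI counts were added up for each class in a library, and classes with at least 30 cells in every library were tested with edgeR 4.0.16 (quasi-likelihood, TMM, filterByExpr, Benjamini-Hochberg over all genes of the class, threshold 0.05), each class by itself; interactions held the library as a term. With 2 libraries a group, the smallest p of an exact permutation test is 0.333. A member's test is given where its mean reached 10 CPM in a group or it passed; of the other pathway genes, up to 5 with the largest change past the threshold, and the ligands, Nrp2 and Ptprb, are named. Fits were tested on simulated counts. Of the gene identifiers, 30934 (99.6%) matched GENCODE M21 on GRCm38, which gave positions and intron lengths. Alternatives were RLE scaling, DESeq2 1.42.0, no low-count filter, a replicate block, each library left out, a stricter filter (1000 genes, 5% mitochondrial UMIs), thinning to 1000 UMIs, removal of the intron-length trend, the doubled resolution (2.0) and doublets kept.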

Additional observations from a re-analysis of the deposited data

Results flagged for a closer look

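The change between the groups differed between endothelial subtypes in 5 cases by the interaction test (edgeR). Against capillary-like cells, the log2 change was greater in arterial-like cells by 0.71 for Kdr, 0.38 for Flt1 and 0.33 for Nrp1. Against capillary-like cells it was greater in venous-like cells by 0.81 for Kdr and 0.52 for Nrp1. With the Glul cluster counted as arterial-like the first 3 stood at -0.19, -0.10 and -0.17, and with the MHC class II clusters counted as venous-like the other 2 stood at -0.10 and -0.18. At the doubled clustering resolution none of the 5 passed: the Kdr values were 0.045 (edgeR adjusted p 0.948) and 0.37 (0.366), the Flt1 value 0.025 (0.964) and the Nrp1 values -0.028 (0.969) and 0.37 (0.399).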

How the results depend on the processing

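Over 113 gene results and 1562 values under the alternatives, 1247 kept direction and side of the threshold, 131 lost a call, 68 gained one and 116 changed sign. Fits that left out 1 library assumed that the lone sample varied like the other group. Kept under every alternative were Vegfc in endothelial-like, capillary-like, arterial-like, venous-like and NK-like cells, Vegfa and Nrp1 in NK-like cells and Dusp5, Gab1, Plxnd1 and Shb in endothelial-like cells. Same-numbered replicates did not deviate together (correlation -0.19 over 10561 genes, whose size is the same with the sign turned for crossed numbers, since each group has 2 libraries), so the numbers were not taken to pair the libraries. With the replicate block 4846 genes passed in endothelial-like cells, and with the crossed pairing, chosen after seeing the data, 5699. The share of called genes that were higher moved with the intron-length trend removed from 27.9% to 41.0% in T cell-like, from 31.9% to 47.5% in arterial-like, from 32.0% to 46.7% in fibroblast-like, from 32.1% to 42.8% in interferon-responding, from 36.9% to 60.6% in macrophage-like, from 18.7% to 34.4% in smooth muscle-like and from 29.4% to 49.1% in venous-like cells, and with RLE scaling from 67.9% to 53.1% for the venous interaction. The changes to the subtype borders (Glul, MHC class II and secretory clusters) were also chosen after seeing the data. No block was added to the interaction fits, which already hold a library term. As fitted, the numbers of genes past the threshold were 5143 (NK-like), 2036 (T cell-like), 1379 (arterial-like), 331 (arterial interaction), 262 (venous interaction), 4543 (capillary-like), 4804 (endothelial-like), 975 (epithelial-like), 2864 (fibroblast-like), 1893 (interferon-responding), 1418 (macrophage-like), 540 (mural-like), 534 (smooth muscle-like) and 1160 (venous-like). With DESeq2, the number was 3340 (NK-like), 1128 (T cell-like), 548 (arterial-like), 103 (arterial interaction), 72 (venous interaction), 1722 (fibroblast-like), 721 (interferon-responding), 773 (macrophage-like), 342 (mural-like), 226 (smooth muscle-like) and 449 (venous-like), and sign changes were seen for Vegfc 0.0092 (fibroblast-like), Nrp1 0.015 (mural-like). With the Glul cluster counted as arterial-like, the number was 103 (arterial interaction), and sign changes were seen for Flt1 -0.14 and Nrp1 -0.18 (arterial-like), Flt1 -0.10, Kdr -0.19 and Nrp1 -0.17 (arterial interaction). With cells thinned to 1000 UMIs, the number was 2182 (NK-like), 578 (T cell-like), 507 (arterial-like), 75 (arterial interaction), 38 (venous interaction), 2362 (capillary-like), 2629 (endothelial-like), 262 (epithelial-like), 1000 (fibroblast-like), 770 (interferon-responding), 244 (macrophage-like), 162 (mural-like), 106 (smooth muscle-like) and 272 (venous-like), and sign changes were seen for Kdr -0.50 (T cell-like), Flt1 -0.0079 and Flt4 -0.065 (capillary-like), Flt1 0.29 and Vegfa -0.46 (epithelial-like), Angpt2 0.23 and Nrp1 0.031 (mural-like), Nrp1 0.19 (smooth muscle-like), Flt1 -0.040 (venous-like). At the doubled clustering resolution, the number was 115 (arterial interaction), 61 (venous interaction) and 3298 (macrophage-like), and sign changes were seen for Kdr -0.52 (T cell-like), Flt1 -0.038, Nrp1 -0.094 and Vegfa 0.069 (arterial-like), Nrp1 -0.028 (arterial interaction), Flt1 -0.060 and Nrp1 -0.065 (capillary-like), Flt1 0.097 and Tek 0.17 (epithelial-like), Vegfc 0.079 (interferon-responding), Flt1 -0.13 (venous-like). With doublets kept, the number was 386 (epithelial-like) and 844 (mural-like), and sign changes were seen for Flt1 0.31 (T cell-like), Tek 0.072 (epithelial-like), Kdr -0.31, Ptprb -0.62 and Vegfd -0.58 (fibroblast-like), Vegfa 0.063 (interferon-responding), Flt1 -0.93 and Kdr -0.20 (macrophage-like), Angpt2 0.11 and Ptprb -0.45 (mural-like). With the intron-length trend removed, the number was 985 (T cell-like), 1857 (fibroblast-like), 762 (macrophage-like), 201 (mural-like), 262 (smooth muscle-like) and 652 (venous-like), and sign changes were seen for Flt1 0.37 (NK-like), Flt1 0.15 and Nrp1 0.25 (T cell-like), Tek 0.29 (capillary-like), Angpt1 0.057, Flt1 0.64, Nrp1 0.54, Ptprb 0.35 and Tek 0.33 (endothelial-like), Angpt1 0.80, Ccbe1 0.081, Flt1 0.65, Nrp1 0.50, Vegfb -0.11 and Vegfc 0.60 (fibroblast-like), Flt1 0.47, Nrp1 0.30 and Tek 0.48 (interferon-responding), Angpt2 0.029, Nrp1 0.56 and Nrp2 0.15 (mural-like), Nrp1 0.33 (smooth muscle-like), Tek 0.51 (venous-like). With no filter on low counts, the number was 1 (epithelial-like), 2182 (macrophage-like) and 1088 (mural-like), and sign changes were seen for Vegfc 0.025 (fibroblast-like), Vegfa 0.014 (interferon-responding), Nrp1 0.026 (mural-like). With the replicate block, the number was 1545 (epithelial-like), and sign changes were seen for Nrp1 0.047 (mural-like). With the crossed replicate block, sign changes were seen for Nrp1 0.037 (mural-like). With the stricter cell filter, the number was 93 (venous interaction) and 100 (smooth muscle-like), and sign changes were seen for Flt1 -0.0067 (capillary-like), Ptprb -0.0041 and Vegfc 0.073 (fibroblast-like), Angpt2 0.094 and Vegfb -0.13 (mural-like). With the MHC class II clusters counted as venous-like, the number was 73 (venous interaction), and sign changes were seen for Kdr -0.098 and Nrp1 -0.18 (venous interaction), Flt1 -0.014 and Nrp1 -0.058 (capillary-like), Flt1 -0.27 and Nrp1 -0.27 (venous-like). Without the secretory cluster in the capillary-like class, sign changes were seen for Flt1 -0.060, Flt4 -0.038 and Nrp1 -0.024 (capillary-like). Without the Cysltr1 and H2-Aa clusters in that class, sign changes were seen for Flt1 -0.0048, Flt4 -0.031 and Nrp1 -0.013 (capillary-like). With each library left out in turn the numbers ranged from 2732 to 5098 (NK-like), from 709 to 2979 (T cell-like), from 580 to 1951 (arterial-like), from 72 to 513 (arterial interaction), from 54 to 171 (venous interaction), from 2356 to 6271 (capillary-like), from 2159 to 7580 (endothelial-like), from 238 to 3587 (epithelial-like), from 1517 to 4019 (fibroblast-like), from 652 to 3137 (interferon-responding), from 683 to 1983 (macrophage-like), from 380 to 645 (mural-like), from 229 to 615 (smooth muscle-like) and from 612 to 1140 (venous-like). The log2 values whose sign turned in this way ranged from -0.27 to 0.62 for Kdr (T cell-like). In the capillary-like class they ranged from -0.069 to 0.093 for Flt1, -0.078 to 0.14 for Flt4 and -0.16 to 0.23 for Nrp1. In the endothelial-like class they ranged from -0.095 to 0.025 for Flt1, -0.048 to 0.23 for Flt4, -0.29 to 0.13 for Nrp1 and -0.21 to 0.071 for Vegfb. In the epithelial-like class they ranged from -0.64 to 0.30 for Flt1, -1.65 to 0.39 for Kdr and -0.65 to 0.39 for Tek. In the fibroblast-like class they ranged from -0.65 to 0.044 for Angpt1, -0.87 to 0.26 for Flt1, -0.27 to 0.42 for Ptprb, -0.085 to 0.33 for Vegfb, -0.16 to 0.13 for Vegfc and -0.47 to 1.09 for Vegfd. In the interferon-responding class they ranged from -0.27 to 0.22 for Flt4, -0.13 to 0.022 for Tek and -0.69 to 0.16 for Vegfa. In the mural-like class they ranged from -0.21 to 0.063 for Angpt2, -0.36 to 0.49 for Nrp1 and -0.71 to 0.46 for Nrp2. In the smooth muscle-like class they ranged from -0.64 to 0.12 for Angpt2 and -0.44 to 0.14 for Nrp1. The cause of these changes was not tested, except that leaving out libraries, thinning and stricter filters leave fewer samples or counts. Few cells limited lymphatic-like and sprouting-like values, and the small numbers of deligated macrophage-like and epithelial-like and of homeostatic mural-like cells limited those classes.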
